A study of Mus musculus with 4 samples.

Results

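The 7 genes described here encode MHC class II molecules and the proteins that load and switch them on: H2-Aa, H2-Ab1, H2-Eb1, H2-DMa, H2-DMb1, Cd74 and Ciita, all found by symbol among the 31053 features of the count matrices. Their unique molecular identifiers (UMIs, each standing for 1 captured RNA molecule) were summed in 4 classes of liver cells that had no UMI of Ptprc, the pan-leukocyte gene that encodes CD45. Mesothelial cells were those with Upk3b and Nkain4, duct cells those with Epcam and Spp1, vascular endothelial cells those with Vwf and Ly6c1, and sinusoidal endothelial cells those with Clec4g and Stab2. The pair of a class also had to hold at least 2 times the UMIs of each other pair. Cells with Cd79a, a part of the B cell receptor, that met no pair served as the reference for a professional antigen-presenting cell.

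The cells were non-parenchymal liver cells of mice with a Col1a2-CreERT2 tdTomato reporter, in which an inducible Cre driven by the collagen gene Col1a2 switches on a red fluorescent protein. Steatohepatitis had been induced for 8 weeks with a diet of 45% fat, deficient in methionine and choline, with 0.1% L-methionine in the water, a model named MCDHF. Reporter-positive and reporter-negative cells were each taken from MCDHF-injury mice and from recovery mice, which gave 4 groups of 1 library. The genotype labels read R26RtdTomato for the positive injury library, R27RtdTomato for positive recovery, R28RtdTomato for negative injury and R29RtdTomato for negative recovery, whereas the series' design text names R26RtdTomato alone, so the numbers are not read here as 4 genotypes. The sources used here do not state the age, sex or strain of the mice, how many were pooled or how long recovery lasted, and no group was labelled as healthy.

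MHC class II molecules are pairs of an alpha and a beta chain that show peptides to CD4 T cells. The invariant chain Cd74 guards the peptide groove until H2-DM exchanges its remnant for a peptide. Ciita, a coactivator without DNA binding of its own, turns the other members on from the X and Y boxes of their promoters. B cells, macrophages and dendritic cells carry these genes all the time, whereas other cells of the body are known to gain them mainly after interferon-gamma.

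The promoters of 3 members are shown because class II genes are held to share a docking site for Ciita. Textbook accounts place the chain genes H2-Aa and H2-Eb1 and the exchange gene H2-DMb1 under this 1 switch. Each line holds the 110 bases before the start of the gene in RefSeq's promoter table (GRCm38.p6), 5′ to 3′ on the gene's strand. Capitals mark matches to CTNGNAAC, letters from the X box, and to ATTGG, the core of the Y box.
H2-DMb1, chr17:34153081-34153190, plus strand: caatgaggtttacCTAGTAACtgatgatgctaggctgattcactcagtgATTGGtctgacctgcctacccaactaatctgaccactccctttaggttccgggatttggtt
H2-Aa, chr17:34287824-34287933, minus strand: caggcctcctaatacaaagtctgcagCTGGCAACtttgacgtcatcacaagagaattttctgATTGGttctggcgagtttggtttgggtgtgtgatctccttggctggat
H2-Eb1, chr17:34305757-34305866, plus strand: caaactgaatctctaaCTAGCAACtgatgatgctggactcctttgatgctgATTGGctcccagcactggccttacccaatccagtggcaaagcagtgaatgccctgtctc
Both capital blocks came in the same order in the 3 promoters. The CTNGNAAC match began 97, 84 and 94 bases before the start in H2-DMb1, H2-Aa and H2-Eb1, and the ATTGG match 61, 48 and 59 bases before it. H2-Eb1 also held ATTGG on the other strand, 35 bases before the start, which is left in lower case. The longer X box letters CCTAGNAAC, read on both strands like the others, matched in H2-DMb1 alone of the 3. The shorter CTNGNAAC lies within it and was chosen after the promoters had been read. Of 32851 promoters of the same 300 bases, 1.52% held CCTAGNAAC, 37.4% ATTGG, 13.2% CTNGNAAC and 5.04% both CTNGNAAC and ATTGG, so such a match describes letters and not a site in use. Promoters were found for 4 of the 7 members. The fourth, H2-DMa, had 2 entries, of which 1 held ATTGG 198 bases before its start. On mm10, H2-DMa (17:34119541-34139101), H2-DMb1 (17:34153072-34160230), H2-Ab1 (17:34257689-34269419), H2-Aa (17:34282744-34287823) and H2-Eb1 (17:34305867-34316674) lie in a row on chromosome 17, and Ciita lies on chromosome 16 (10480059-10528418). The H2-DMb1 bases printed above lie inside this span of the gene, so the promoter table and these coordinates place its start differently.

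In the order positive recovery, negative recovery, negative injury, the libraries held 2606, 3108 and 6160 barcodes and 33442403, 27816768 and 49993127 UMIs, and 2380, 2949 and 5443 cells were used. Counts of the positive injury library were not analysed here. The classes held 1312, 80 and 283 mesothelial, 24, 415 and 1110 duct, 1, 20 and 61 vascular and 194, 2115 and 3223 sinusoidal cells, and the reference 29, 2 and 0 cells. Because each group has 1 library, no difference could be tested against a spread between animals, and cells of 1 library are not replicates. All intervals below are 95% intervals that cover counting error only. Libraries shared between 3 and 6 barcodes in pairs. In the negative injury library the mesothelial gene Msln stood at 1501 CPM (UMIs per 1000000 UMIs) in mesothelial and 5.30 CPM in duct cells. Mesothelial cells also held the 4 stellate markers at 9468, 8807 and 8939 CPM in the 3 libraries, above their 6 mesothelial markers (6388, 7189 and 5094 CPM). Nearly all of that was the matrix gene Dcn (9420, 8780 and 8922 CPM), with Lrat at 5.49, 0.68 and 3.76 CPM and Reln at 8.57, 0 and 0.68 CPM. Sinusoidal cells of positive recovery went against their name: their stellate markers summed to 9558 CPM, with Lrat at 402 and Reln at 624 CPM, above their sinusoidal markers at 6754 CPM, against 84.6 and 83.1 CPM of stellate markers in the negative libraries. They are called sinusoidal below by their marker pair alone. Duct cells of the negative libraries also held 2 hepatocyte markers, Alb at 4815 and 6201 CPM and Ttr at 1773 and 3184 CPM, whereas the hepatocyte markers Apoa1 and Serpina1a lay between 4.64 and 36.6 CPM. The part of hepatocyte RNA in the duct values was not tested.

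Class II RNA was carried by mesothelial and duct cells and was close to absent from sinusoidal endothelium. In mesothelial cells the 7 genes together made up 1142 CPM in positive recovery (1128 to 1156), 1326 CPM in negative recovery and 1151 CPM in negative injury. Duct cells held 385 CPM (24 cells), 336 and 466 CPM in the same order. Sinusoidal cells held 29.96, 3.58 and 8.34 CPM. The order mesothelial, duct, sinusoidal was thus the same in each of the 3 libraries, with intervals that did not overlap. Mesothelial cells held 3.94-fold (3.70 to 4.20) the summed level of duct cells in negative recovery and 2.47-fold (2.39 to 2.55) in negative injury. Over sinusoidal cells the mesothelial level was 38.1-fold higher in positive recovery, 371-fold in negative recovery and 138-fold in negative injury.

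In the negative injury library 44.0% of all class II UMIs lay in the mesothelial class, which was 5.20% of the cells, and 52.8% in the duct class, which was 20.4% of the cells. In negative recovery the shares were 46.4% and 46.3%, from 2.71% and 14.1% of the cells. In both reporter-negative libraries, then, these lining epithelia held more than 9 in 10 of the class II molecules counted. In positive recovery 57.9% of the UMIs lay in mesothelial cells, 33.7% in other cells with a Ptprc UMI and 5.47% in the Cd79a-positive cells. That library held 157 cells with a Ptprc UMI, against 4 in negative recovery and 3 in negative injury.

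**Figure D1:**
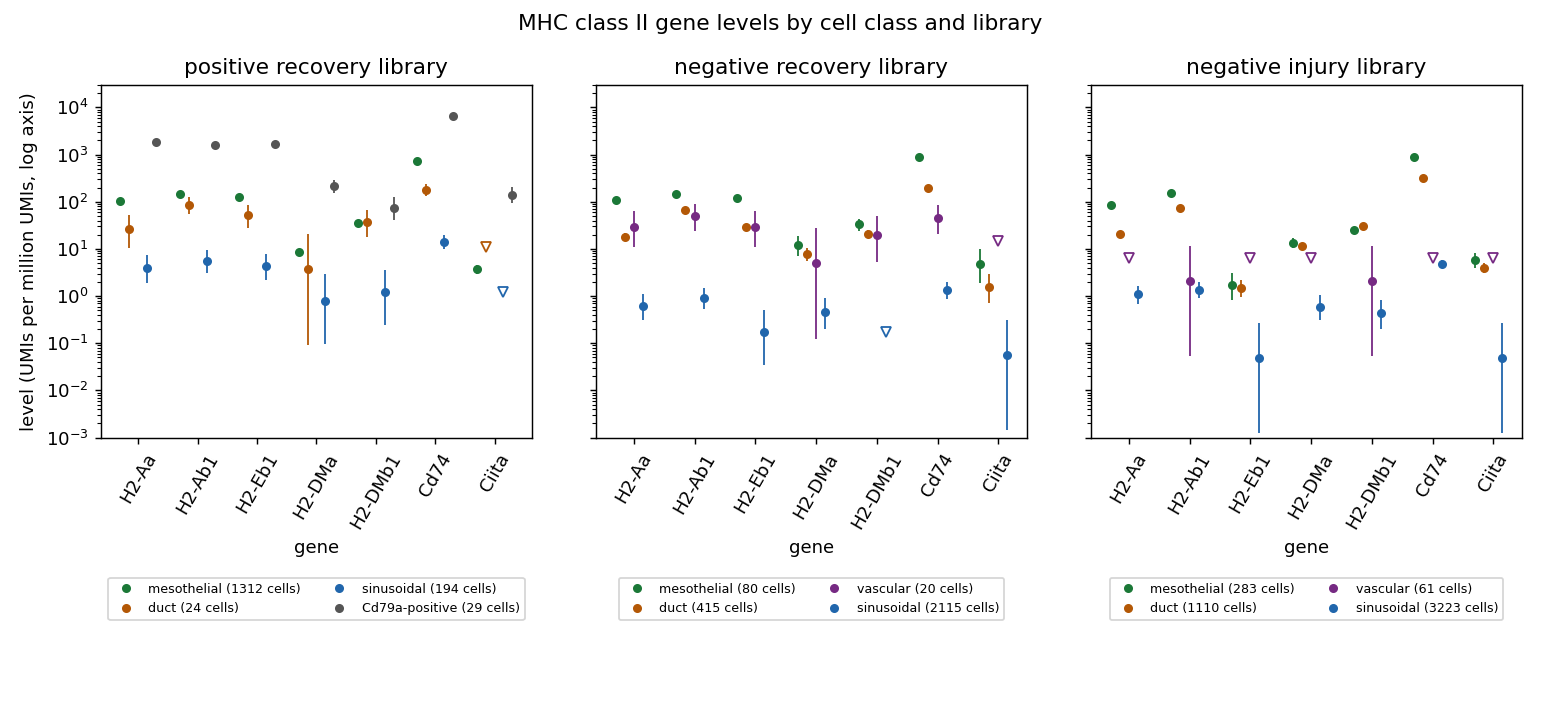
Level of each class II gene (CPM, log axis) in pools of at least 20 cells, 1 panel per library. Points are sums over the cells of a class with exact Poisson 95% intervals, and open triangles mark 0 UMIs, drawn at the level of 3 counts. Mesothelial points (green) lie near or above duct points (brown) and well above sinusoidal points (blue), and H2-Eb1 is low in the injury panel.

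The Cd79a-positive reference stood higher still, at 12265 CPM (11784 to 12760) over 29 cells, 10.7-fold the mesothelial level of the same library. One of these cells, with most of its UMIs from Igkc, diluted the sum, and without it the reference reached 16146 CPM. Cells with myeloid markers in that library reached 23232 CPM over 32 cells, 20.35-fold the mesothelial level. Of these 32 cells, 4 held 50.8% of the class II UMIs. The median myeloid cell held 85.2 class II UMIs per 10000, below the 209 of the median Cd79a-positive cell, so the order of the summed levels was not that of the medians. Cells with T cell markers held 855 CPM over 31 cells, but 96.5% of their UMIs came from 4 cells.

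The alpha chain H2-Aa and the beta chain H2-Ab1 together form the I-A molecule. In mesothelial cells H2-Aa stood at 106, 109 and 84.7 CPM and H2-Ab1 at 147, 146 and 150.1 CPM in the library order given above. In duct cells H2-Aa stood at 25.9, 18.1 and 21.1 CPM and H2-Ab1 at 85.0, 65.7 and 72.2 CPM. The alpha chain thus differed more between the tissues than its partner did. In negative injury H2-Aa was 4.02-fold higher in mesothelial than in duct cells (3.50 to 4.61), and H2-Ab1 2.08-fold (1.91 to 2.27). As a share of both chains' UMIs, H2-Aa made up 41.8%, 42.7% and 36.1% in mesothelial cells, 23.3%, 21.6% and 22.6% in duct cells, 53.9% in the Cd79a-positive cells and 52.8% in the myeloid cells. In the 2 negative libraries the intervals of mesothelial (33.5 to 38.7% in injury) and duct cells (20.6 to 24.7%) did not overlap. Such a share is comparable between cells but not a ratio of proteins, because counts from the 3′ end depend on each transcript's sequence.

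H2-Eb1, the beta chain of the I-E molecule, differed between the libraries in both lining tissues. It stood at 125 and 120 CPM in mesothelial cells of positive and negative recovery and at 1.71 CPM (0.82 to 3.14) in negative injury, where 283 cells held 10 UMIs. Duct cells showed the same step, from 51.8 and 29.2 CPM in the recovery libraries to 1.497 CPM (26 UMIs in 1110 cells) in injury. Both tissues were high in recovery and low in injury, with H2-Aa and H2-Ab1 at similar levels throughout. H2-Eb1 was 70.1-fold higher in recovery than in injury in mesothelial cells (37.3 to 149) and 19.5-fold in duct cells (12.9 to 30.7).

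The step was also seen cell by cell. Among mesothelial cells with at least 10 H2-Ab1 UMIs, all 6 of negative recovery and all 81 of positive recovery held H2-Eb1, against 4 of 28 in negative injury. In those 28 cells 459 H2-Ab1 UMIs stood beside 5 of H2-Eb1, and in the 6 recovery cells 83 stood beside 55. In duct cells with as much H2-Ab1, 6 of 6 held H2-Eb1 in negative recovery and 2 of 14 in negative injury. No cell of the injury library in either class held more than 2 H2-Eb1 UMIs. The Eb paralog H2-Eb2 had 0 UMIs in mesothelial and duct cells of every library.

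The invariant chain Cd74 was the most abundant member in mesothelial and duct cells. It reached 716, 902 and 869.6 CPM in mesothelial cells and 181, 193 and 324 CPM in duct cells. It made up 62.7%, 68.0% and 75.6% of mesothelial class II UMIs, 57.4% and 69.7% of those of duct cells in negative recovery and negative injury, and 54.6% in the Cd79a-positive cells. In both tissues the highest share was in the library with little H2-Eb1, but the share rises by itself where H2-Eb1 is missing from the sum. The Cd74 level in injury was above that of negative recovery in duct cells (324 against 193 CPM) but not in mesothelial cells (869.6 against 902 CPM). Cells with at least 1 Cd74 UMI made up 81.7%, 85.0% and 88.0% of mesothelial cells, and 43.1% and 51.7% of duct cells in the negative libraries.

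H2-DMa and H2-DMb1 form the exchange factor H2-DM. Mesothelial cells held H2-DMb1 at 35.6, 33.1 and 25.4 CPM and H2-DMa at 8.57, 12.2 and 13.5 CPM. Duct cells held H2-DMb1 at 37.0, 21.1 and 31.0 CPM and H2-DMa at 3.70 (1 UMI), 7.74 and 11.6 CPM. In negative injury mesothelial H2-DMb1 stood at 0.82-fold the duct level (0.68 to 0.99), and the H2-DMa levels differed by less than counting error (1.17-fold, 0.89 to 1.52). Of the UMIs of H2-DMb1 and H2-DMa together, H2-DMb1 supplied 80.6%, 73.1% and 65.4% in mesothelial cells and 73.2% and 72.8% in duct cells of the negative libraries. In the Cd79a-positive cells it supplied 25.9% (15.3 to 39.0%) and in myeloid cells 52.6%. The near-identical neighbour H2-DMb2 held 52 UMIs in the Cd79a-positive cells, against 0 or 1 in mesothelial cells and 12 in duct cells of negative injury, and how reads were shared between the copies is not stated in the labels. The split between H2-DMb1 and H2-DMb2 is uncertain for that reason. The shares above leave out H2-DMb2, so they do not give the beta chain part of H2-DM, least of all in the Cd79a-positive cells.

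Ciita, the coactivator, was scarce. It stood at 3.73, 4.73 and 5.80 CPM in mesothelial cells, from 85, 7 and 34 UMIs, and at 1.55 and 4.03 CPM in duct cells of the negative libraries. The 24 duct cells of positive recovery had 0 Ciita UMIs, which allows up to 11.1 CPM. In sinusoidal cells it had 0, 1 and 1 UMIs. The Cd79a-positive cells held 140 CPM (28 UMIs), 37.4-fold the mesothelial level of that library (23.5 to 58.0), a wider gap than the 9.35-fold gap of Cd74 (8.84 to 9.89). Ciita was accordingly 1.14% of class II UMIs in the reference and 0.33%, 0.36% and 0.50% in mesothelial cells, although the interval of the last (0.35 to 0.70%) nearly met that of the reference (0.76 to 1.64%).

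**Figure D2:**
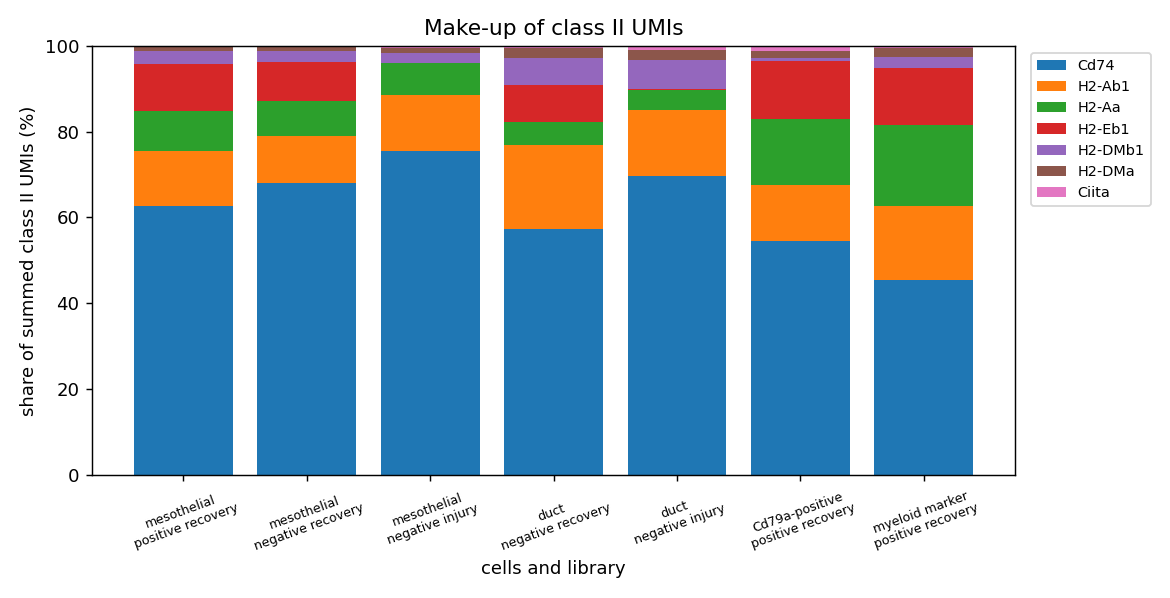
Share of each gene among the summed class II UMIs (%) in mesothelial cells of 3 libraries, duct cells of the 2 negative libraries, and Cd79a-positive and myeloid marker cells of positive recovery. H2-Eb1 (red) is missing from the bars of the injury library, and H2-DMb1 (purple) takes a larger part in duct cells than elsewhere.

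Other genes of the class II pathway are given beside their levels in leukocytes. The list of accessory and processing genes held 12 names, of which 11 were among the features. H2-Oa and H2-Ob encode H2-O, which restrains H2-DM in B cells. H2-Oa had 0 UMIs in mesothelial and duct cells of every library, and H2-Ob had 1 UMI in all of them together, whereas the 29 Cd79a-positive cells held 22 and 41. March1, an E3 ligase that removes class II from the surface of professional cells, stood at 130 CPM in the reference, at 125 CPM in myeloid cells and at no more than 0.17 CPM in mesothelial and duct cells. March8, its relative in other tissues, stood between 34.2 and 37.9 CPM in mesothelial and between 36.1 and 41.1 CPM in duct cells.

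Proteases of the list trim the invariant chain and cut proteins to peptides. Ctss, cathepsin S, stood at 205 CPM in the reference and 2131 CPM in myeloid cells, and between 0 and 1.89 CPM in mesothelial and duct cells. Ctsl, cathepsin L, stood at 956, 726 and 543 CPM in mesothelial cells and at 418, 395 and 384 CPM in duct cells, against 74.9 CPM in the reference and 234 CPM in myeloid cells, and highest in sinusoidal cells (1476, 1653 and 3869 CPM). Ctsb, Ctsd and Lgmn were found in all of these pools. Ctsb stood at 349, 344 and 425 CPM in mesothelial cells, 149.8 CPM in the reference and 4772 CPM in myeloid cells, Ctsd at 229.7, 224 and 245 against 84.9 and 2277 CPM, and Lgmn at 94.5, 69.7 and 97.8 against 44.9 and 2033 CPM. The costimulatory gene Cd86 had 0 UMIs in mesothelial and duct cells of all libraries and 74 in the 32 myeloid cells, and Cd80 had 1. Cd274, which encodes PD-L1, was present at 14.5, 16.2 and 18.6 CPM in mesothelial cells. Icosl stood at 11.0, 14.9 and 2.56 CPM there. The components of the promoter complex through which Ciita acts were detected in both tissues, with Rfx5 between 12.4 and 17.4 CPM in mesothelial and between 10.8 and 15.4 CPM in duct cells.

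Leukocyte RNA was measured in the same pools. In the negative injury library mesothelial cells held 6741 class II UMIs and 0 UMIs of the B cell markers Cd79a, Cd79b, Ms4a1, Ighm, Igkc and Ebf1, and Lyz2, a gene of myeloid cells, had 3 UMIs. Mesothelial cells of positive recovery held more leukocyte RNA, with 248 UMIs of B cell markers and 141 of Lyz2 beside 25986 class II UMIs. Class II UMIs per Lyz2 UMI came to 184 there, to 2247 in mesothelial cells of negative injury and to 2.48 in the myeloid cells of positive recovery. Per Cd68 UMI the gap was much smaller, at 201 and 281 in the same mesothelial pools and 45.8 in the myeloid cells. Duct cells of negative recovery and negative injury held 85.0 and 165 class II UMIs per Cd68 UMI. Duct cells of negative recovery held 1956 class II UMIs and none of Lyz2, C1qa, Cd79a, Cd79b, Igkc or Ighm, but 42 of Ebf1, 229 of Csf1r, 23 of Cd68 and 1 of C1qb. The summed level of 12 myeloid and dendritic markers was 34.4, 14.2 and 10.6 CPM in mesothelial cells, with 3, 8 and 4 of them at 0, and 43.5 and 21.9 CPM in duct cells of the negative libraries, with 9 and 5 at 0. The 4 T cell markers had between 0 and 10 UMIs in each of these pools. Cells without a UMI of any B, myeloid, dendritic or T marker held 1252, 1259 and 1203 CPM of class II in the mesothelial class and 331 and 460 CPM in the duct class of the negative libraries, close to the values of all cells.

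**Figure D3:**
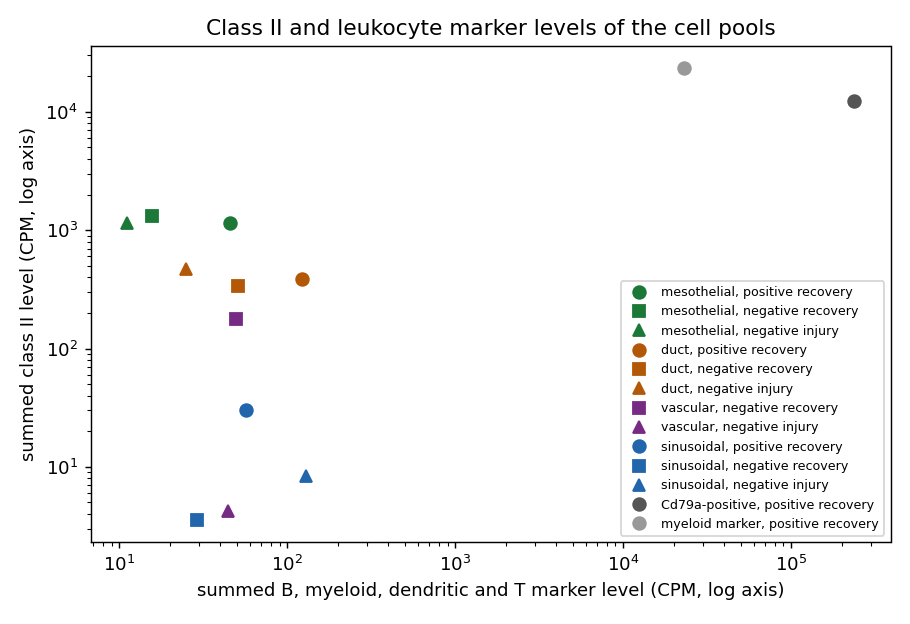
Summed class II level against the summed level of B, myeloid, dendritic and T markers (CPM, both axes log), 1 point per class and library with at least 20 cells. Mesothelial and duct points reach 336 to 1326 CPM of class II at no more than 122 CPM of leukocyte markers, and sinusoidal points, at 29.0 to 129.9 CPM of these markers, lie at 29.96 CPM of class II or lower.

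Within a class the genes were unevenly spread over cells. A class II UMI was found in 90.9%, 91.3% and 89.8% of mesothelial cells, at median depths of 14875, 15753 and 20547 UMIs, and in 61.2% and 70.0% of duct cells of the negative libraries. In sinusoidal cells the shares were 24.2%, 2.22% and 3.82%. After each cell was thinned to 1000 UMIs, the shares became 53.5%, 51.3% and 50.7% for mesothelial cells, 19.0% and 24.5% for duct cells and 3.17%, 0.38% and 0.66% for sinusoidal cells, in the same order of classes as before thinning. Thinning left out 54, 0 and 3 mesothelial, 9 and 13 duct, and 5, 30 and 32 sinusoidal cells. In cells with T cell markers of positive recovery, which should lack these genes, the share was 35.5% at a median of 6190 UMIs and 12.9% after thinning (3.63 to 29.8%). These T cells are a poor floor, since 4 of the 31 held 96.5% of the UMIs, and they say nothing of free RNA in the negative libraries. Mesothelial shares lay above their interval, duct shares of other libraries within it, and the sinusoidal share of positive recovery below it.

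The median mesothelial cell held 7.63, 9.16 and 5.89 class II UMIs per 10000, and the median duct cell 0.92 and 1.44 in the negative libraries. The 10% of cells with the highest level held 45.5%, 43.3% and 44.6% of mesothelial class II UMIs, and 63.9% and 56.7% of those of duct cells. Single duct cells reached the counts of mesothelial cells, with up to 175 and 229 class II UMIs in 1 cell, against up to 256, 145 and 222 in mesothelial cells. The highest 10% of duct cells in negative injury (111 cells, 2129 CPM) held Msln at 2.97 CPM, against 5.604 CPM in the other 999. Their 12 myeloid and dendritic markers summed to 21.8 against 22.0 CPM, their 6 duct markers to 19061 against 22673 CPM, their hepatocyte markers to 5662 against 9956 CPM and their sinusoidal markers to 96.2 against 224 CPM. In negative recovery the highest 10% of duct cells (42 cells, 1915 CPM) held 0 UMIs of Msln and Upk3b, which stood at 15.3 and 10.7 CPM in the other 373, and duct markers at 20034 against 22408 CPM. Mesothelial cells differed in their myeloid and dendritic markers. In their highest 10% these summed to 53.2, 26.1 (8 cells) and 9.12 CPM in the 3 libraries, against 32.5, 12.8 and 10.7 CPM in the other cells. The part of leukocyte RNA in these high cells was not tested.

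**Figure D4:**
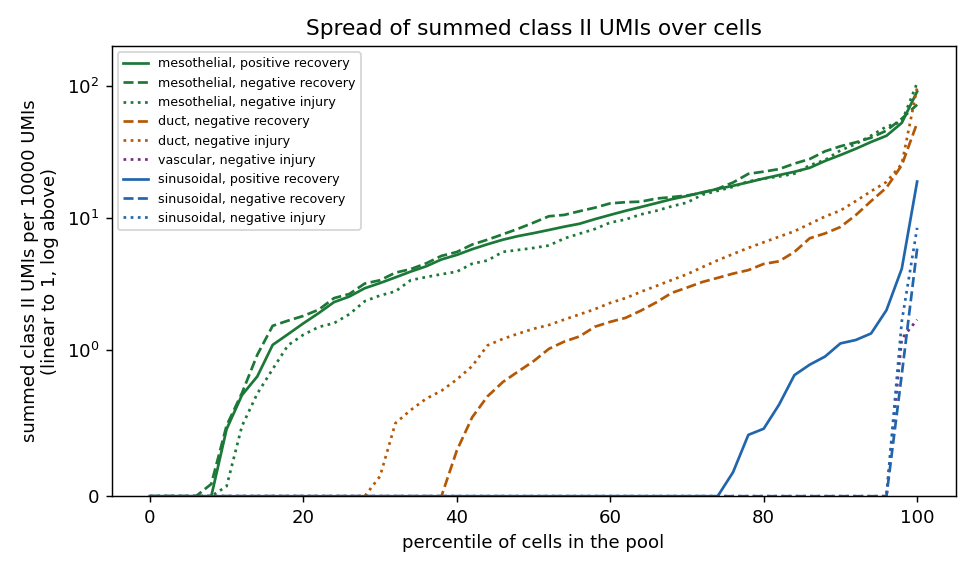
Summed class II UMIs per 10000 UMIs of a cell (linear to 1, log above) at each percentile of the cells in a pool of at least 30 cells. Mesothelial curves leave 0 before the 15th percentile, duct curves between about the 30th and 40th, and sinusoidal curves of the negative libraries only in the last few percent.

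Among reporter-positive mesothelial cells, those with at least 3 UMIs of Osr1, the transcription factor named in the study's title, were set beside those with none (239 and 937 cells). H2-Ab1 stood at 225 against 124 CPM, a log2 ratio of 0.80 (0.70 to 0.90), H2-Eb1 at 182 against 109 CPM (0.68) and H2-Aa at 147 against 95.02 CPM (0.58). Cd74 stood at 662 against 742 CPM, a ratio of -0.16 (-0.22 to -0.11), and Ciita at 2.36 against 4.62 CPM. The 3 chain genes were higher, each by less than 2-fold, and the invariant chain slightly lower in cells rich in Osr1. How all other genes differed in this split was not computed. Cells rich in Osr1 were deeper, with a median of 16817 against 14193 UMIs, and the part of depth in choosing them was not tested.

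Endothelial cells added little. The vascular class of negative recovery held 177 CPM (124 to 245), but its 36 UMIs lay in 4 of 20 cells, whereas the 61 vascular cells of negative injury held 2 UMIs (4.22 CPM). With fewer than 30 cells in 1 group these were not set against each other. Stellate marker cells of positive recovery held 101.2 CPM over 146 cells, with H2-Ab1 (35.6 CPM) above Cd74 (18.6 CPM), an order not seen in mesothelial cells.

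Recovery was compared with injury in the reporter-negative libraries, as the log2 ratio of the levels with 10 CPM added to both, and a gene past 2-fold was counted as called. In mesothelial cells the summed class II level differed by 0.20 (0.13 to 0.28), in duct cells by -0.46 (-0.53 to -0.39) and in sinusoidal cells by -0.43 (-0.56 to -0.29). In sinusoidal cells the 12 myeloid and dendritic markers moved the same way, at 28.4 CPM in recovery and 127.6 CPM in injury, with C1qa at 3.98 and 34.9 CPM, and their part in the difference was not tested. In mesothelial cells 1 of 7 members, H2-Eb1 (3.47, 3.25 to 3.62), was called higher and none lower, where 1.93% of 10853 genes were higher and 2.11% lower (4.04% in either direction). In duct cells it was again H2-Eb1 alone (1.77, 1.62 to 1.89), where 0.622% of 13017 genes were higher and 1.47% lower (2.09% in all). In sinusoidal cells 4 members had enough UMIs and none was called, where 0.548% of 12418 genes were higher and 1.94% lower (2.49% in all). No member exceeded 4.76 CPM there (Cd74 in injury). With 10 CPM added, a gene below 10 CPM in both libraries cannot reach 2-fold, so the lack of calls was fixed in advance. The members' median was 0.05 in mesothelial and -0.28 in duct cells, against 0.08 and 0.06 over all genes.

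The remaining 6 members stayed within 2-fold with 10 CPM added. In mesothelial cells they lay between -0.10 (Ciita) and 0.33 (H2-Aa), and Cd74 lay at 0.05 (-0.04 to 0.14). In duct cells all 6 lay below 0, from Cd74 at -0.72 (-0.81 to -0.63) and H2-DMb1 at -0.40 to H2-Ab1 at -0.12, whose interval of -0.27 to 0.03 included 0. Ciita in duct cells was 2.61-fold higher in injury before the 10 CPM were added (1.30 to 5.93), from 9 and 70 UMIs. At no more than 5.80 CPM in the mesothelial and duct pools compared, Ciita could not pass 2-fold once 10 CPM were added. Without H2-Eb1 the summed ratio was 0.070 in mesothelial and -0.58 in duct cells, and without Cd74 it was 0.58 and 0.019.

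**Figure D5:**
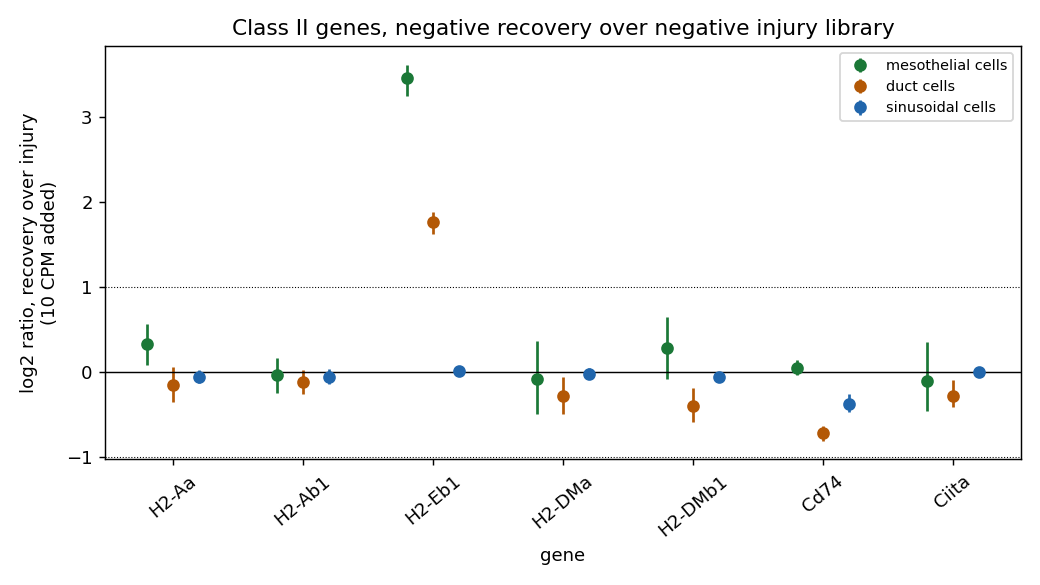
Log2 ratio of negative recovery over negative injury for each member in mesothelial, duct and sinusoidal cells, with 10 CPM added to both levels and 95% counting intervals. Dotted lines mark 2-fold, and H2-Eb1 alone lies beyond it, at 3.47 in mesothelial and 1.77 in duct cells. Members below 10 CPM in both libraries cannot reach these lines.

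Genes on the interferon-gamma-inducible list did differ over the same cells. Of the 12 on the list, all tested, 4 were past 2-fold lower in recovery in mesothelial, 7 in duct and 10 in sinusoidal cells. Over all genes 2.11%, 1.47% and 1.94% were lower in these classes. The medians of the list were -0.74, -1.27 and -1.77, against 0.08, 0.06 and 0.11 over all genes. The list was chosen with earlier results of these data known. Iigp1, a GTPase of the defence against parasites, stood at 265 CPM in injury and 59.5 CPM in recovery in mesothelial cells, at 371 and 76.8 CPM in duct cells and at 1225 and 229.8 CPM in sinusoidal cells. Of the signalling genes, the transcription factor Irf1 was past 2-fold lower in recovery in mesothelial (-1.37), duct (-1.08) and sinusoidal cells (-1.26), and the feedback inhibitor Socs1 in sinusoidal cells (-1.62). Ifng itself had 0 UMIs in all of these pools. Irf7 and Isg15, interferon-stimulated genes outside these lists, stepped the same way. In mesothelial, duct and sinusoidal cells Irf7 stood at 488, 612 and 564 CPM in injury and at 15.6, 25.8 and 19.4 CPM in negative recovery. Isg15 stood at 372, 832 and 458 CPM in injury and at 27.7, 53.6 and 30.9 CPM in negative recovery. Which interferon these steps follow was not tested. None of the 7 genes of the X and Y box complex was called in any of the 3 classes, where 4.04%, 2.09% and 2.49% of all genes were. At such shares a list of 7 without a call is not set apart from other genes. The added 10 CPM also damps ratios at low levels. Rfxank in mesothelial cells, at 16.2 CPM in recovery and 5.97 CPM in injury, had a ratio of 0.72.

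Sinusoidal cells held the highest Iigp1 level and the lowest class II level of the 3 classes in injury, and a link between these levels was not tested. Of the accessory genes 0 of 5 tested were called in mesothelial and in duct cells, and 1 of 6 in sinusoidal cells, Ctsl, which was lower in recovery (-1.22). Of the costimulatory genes 0 of 2 and 0 of 3 were called in mesothelial and duct cells, and 1 of 3, Cd274 (-2.34), in sinusoidal cells. Over all genes 4.04%, 2.09% and 2.49% were called in these classes, so lists this short would mostly hold no call. Before the 10 CPM were added, sinusoidal Cd74 too was higher in injury, 3.49-fold (2.22 to 5.71), from 97 and 24 UMIs, as was the sinusoidal sum, 2.33-fold (1.74 to 3.17).

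H2-Eb1 ranked 5th of 10427 genes by the smaller of its mesothelial and duct ratios. Other genes, singled out after their values were seen, stepped between these libraries in all 3 classes. Rnaset2b stood at 41.3, 99.5 and 54.6 CPM in mesothelial, duct and sinusoidal cells of negative recovery and at 1.37, 4.55 and 1.72 CPM in negative injury. Gm10260 stood at 62.3, 71.9 and 38.3 CPM in injury, with 0, 1 and 0 UMIs in recovery. Whether these genes and H2-Eb1 share a source was not tested, and a difference between the mice of the 2 libraries and a difference between stages cannot be told apart with 1 library each.

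The positive and negative fractions of recovery were compared in mesothelial cells, where the summed ratio was -0.21 (-0.28 to -0.15). None of the 7 members was called, where 1.07% of 12827 genes were higher and 0.078% lower (1.15% in all). Ciita, below 10 CPM in both fractions, could not be called. Cd74 lay at -0.33 (-0.41 to -0.25), and the other 6 lay between -0.26 and 0.08 with intervals that included 0. In sinusoidal cells the summed ratio was 1.56 (1.30 to 1.79), from 75 and 63 UMIs, and 1 of 3 tested members, Cd74 (1.08), was called higher, where 3.62% of 11757 genes were higher and 0.068% lower (3.69% in all). The other tested members, H2-Aa and H2-Ab1, lay below 10 CPM in both fractions and could not be called. The Cd74 call was lost where cells meeting more than 1 pair were left out (0.95), where 2 UMIs of each marker were asked for (0.92) and where cells with a leukocyte marker UMI were left out (0.75). Beside it, the stellate markers stood at 9558 against 84.6 CPM, the mesothelial gene Msln stood at 14.8 against 2.78 CPM, Igkc at 11.2 against 0.11 CPM and Lyz2 at 6.79 against 0.91 CPM in these sinusoidal cells, and their part in the difference was not tested.

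The genes with a pattern most like the summed members were sought over the 9 class and library pools of at least 30 cells, among 5888 genes that reached 50 CPM. By Pearson's r of log2 levels they were Krt7 (0.995), Eml2 (0.994), Krt19 (0.992), Ptpn13 (0.991) and Plce1 (0.990). Krt7 and Krt19 encode keratins of simple epithelia. Among the members themselves r was 0.998 for Cd74, 0.996 for H2-Ab1 and 0.955 for H2-Aa, which the sum contains, and 0.674 for H2-Eb1. These pools share 3 libraries and 4 class rules, so the values describe the order mesothelial, duct and endothelial and nothing more.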

How the data were processed

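Per animal, perfused livers received Pronase (14 mg) and Collagenase (3.7 U), and cells were purified on Nycodenz and prepared with the 10x 3′ v2 chemistry, per the labels' protocols. The authors deposited UMI counts per gene and barcode, written by software version 3.1.0 per the file headers. Builds mm10 and GRCh38 and featureCounts 1.6.2 stand in the submitters' processing notes, and how barcodes were called as cells is not stated in the labels.

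Cells with at least 500 UMIs, 300 genes and at most 20% mitochondrial UMIs were kept. Scrublet (scanpy 1.11.5, seed 7) called 108, 6 and 5 doublets, which were removed. At 0.203% and 0.0918% the rate in both negative libraries shows a failed call, so doublets remain there. Counts were summed per class and library and given as CPM. Ratios of CPM had 10 added and were computed for genes with at least 20 UMIs in both groups together and classes of at least 30 cells. Intervals are exact Poisson for levels, Clopper-Pearson for shares and conditional binomial for ratios (scipy 1.17.1). A sum of 0 allows 3 counts. UMIs are not fully independent molecules, so intervals and floors cover counting error only. TMM scaling used edgeR 4.0.16. Scripts were tested on simulated data. No significance test was run, since cells are not replicates.

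The members and gene lists were chosen with earlier results of these data known. All members are named, with up to 4 genes past 2-fold of each list and the 5 genes most alike. Genes of the lists with levels in the text, Rnaset2b, Gm10260, Irf7, Isg15 and the split by Osr1 were chosen after values were seen. Lists: accessory and processing, X and Y box complex, interferon-gamma signalling, interferon-gamma-inducible and costimulation. The alternatives were other doublet, class, Ptprc and reference rules, scaling, pseudocount, filters and sums without 1 gene. Ifi30 was not among the features. Single values of some listed genes are not reported here, so no count is given for the signalling list.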

Additional observations from a re-analysis of the deposited data

Results flagged for a closer look

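Class II RNA was also present in cells outside the 4 classes that had no Ptprc UMI, which none of the comparisons uses. Their summed level was 277.0 CPM in positive recovery (683 cells, 1148 UMIs), 53.88 CPM in negative recovery (313 cells, 110 UMIs) and 71.65 CPM in negative injury (763 cells, 325 UMIs), each above the level that 3 counts would give. These cells were shallower than the classes, with medians of 1908, 3528 and 3796 UMIs.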

How the results depend on the processing

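Each summed ratio was recomputed under 12 alternatives. Only the sinusoidal ratio of positive over negative recovery was past 2-fold, and it stayed so. The others had no called direction to turn, and all but the mesothelial ratio of recovery over injury changed sign under some alternative. Recovery over injury in mesothelial cells (0.20) became 0.079 with TMM scaling, 0.11 with the marker pair alone, 0.065 without cells holding a leukocyte marker UMI, 0.58 without Cd74 and 0.070 without H2-Eb1. In duct cells (-0.46) it became -0.56 with TMM, 0.019 without Cd74 and -0.58 without H2-Eb1. In sinusoidal cells (-0.43) it became -1.03 with 1 CPM added, -0.62 with the pair alone, 0.036 with Ptprc cells kept and -0.15 without Cd74. Positive over negative recovery in mesothelial cells (-0.21) became -0.12 with the pair alone, -0.0090 without leukocyte marker cells, -0.11 with Ptprc cells kept and 0.0042 without Cd74. In sinusoidal cells (1.56) it became 2.76 with 1 CPM added, 1.97 with no filter on cells, 1.97 with called doublets kept, 1.90 with the pair alone, 1.29 without leukocyte marker cells and 1.09 without Cd74. The H2-Eb1 calls held under all alternatives run. Single members crossed 2-fold in 8 of 350 repeats, 5 of them with 1 CPM added in sinusoidal cells, and 3 where Cd74 in sinusoidal cells of positive over negative recovery fell below it. With 1 CPM added, 1248, 1034, 941, 1015 and 917 genes were past 2-fold, against 438, 272, 309, 147 and 434. TMM shifted the recovery over injury ratios by -0.13, -0.10 and -0.21 in mesothelial, duct and sinusoidal cells. The causes were not tested. Leaving out a replicate was not possible. No paired analysis was possible because each group has 1 library. Depth limits Ciita and sinusoidal values, which rest on few UMIs.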
